A study of Mus musculus with 2 samples.

Results

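The genes described here encode the glutathione and NRF2 antioxidant system, and 37 of them were chosen by symbol, out of 52329 distinct gene symbols in the deposited table. All 37 had a row, and all 37 reached an FPKM (fragments per kilobase of transcript and per sequenced total, a level corrected for transcript length) of at least 1 in at least 1 of the 2 libraries. The libraries came from primary pericytes, the mural cells of small vessels, sorted out of mouse tumours on the C57BL/6 strain and cultured on gelatin to passages 10 to 12. One library was made from Cd248 null cells (the labels' knockout type) and the other from Cd248 heterozygote cells (the labels' hetero type), and no cells with both copies of Cd248 intact were sampled. Cd248 encodes endosialin, a lectin on the surface of pericytes and some fibroblasts, and the series asks what role it has in pericytes of tumours. The sources used here do not give the tumour model, the age of the mice, the number of animals behind each culture or the sorting markers.

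With 1 library per genotype there is no replicate check, so each difference below describes these 2 libraries and has no p-value. The columns are named by codes, and the one ending in N was read as null. In that column Cd248 had an FPKM of 0.0592, against 20.98 in the other, which goes with this reading. Of 12 pericyte markers, 7 reached an FPKM of 1 in null cells and 6 in heterozygote cells, and the list summed to 800 and 1417, most of it the smooth muscle actin Acta2 (726 and 1367). Pdgfrb, a growth factor receptor typical of pericytes, had FPKM values of 57.3 in null cells and 8.25 in heterozygote cells, and Mcam, Cspg4 and Tagln had 8.68, 2.59 and 1.31 in null against 11.2, 5.02 and 2.55 in heterozygote cells. Notch3 and Des went the same way as Pdgfrb, higher in null cells, and reached an FPKM of 1 there alone. Rgs5, Kcnj8, Abcc9 and Anpep were below 1 in both libraries. Of 8 fibroblast markers, 6 reached an FPKM of 1 in null cells and 7 in heterozygote cells. That list summed to 5541 and 3403. Of its 7 expressed genes, 2 were at least 2-fold higher in null cells, Col1a2 (1832 and 853) and Thy1 (884 and 359). Another 3 were lower, Pdgfra (21.6 and 46.2), Dcn (20.8 and 117) and Fap (0 and 1.38), and 2 lay within 2-fold. The cultures also differed in sex-linked RNA. Xist, transcribed from the inactive X chromosome of female cells, stood at 74.2 in null cells and 0.0133 in heterozygote cells, and the Y-linked genes Ddx3y and Eif2s3y were listed at 0 and at 5.91 and 14.3. Genotype, sex and culture therefore cannot be told apart in any comparison given here. An FPKM of 1 stood for about 19.8 reads per kilobase in the null and 24.0 in the heterozygote sample.

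NRF2, the product of Nfe2l2, is a transcription factor that the adaptor protein KEAP1 marks for degradation. Oxidants and electrophiles modify cysteines of KEAP1, and the NRF2 that then accumulates pairs with small MAF proteins on antioxidant response elements of its target genes. Much of this control acts on the NRF2 protein, which RNA levels do not measure. The targets make glutathione and thioredoxin, use them to remove peroxides and electrophiles, supply NADPH, and bind iron in ferritin.

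To show the kind of sequence through which these genes are known to be controlled, promoter windows of 250 bases before to 50 bases after the annotated start were taken from RefSeq (build GRCm38.p6). Windows were present for 31 of the 37 members, and 9 of these 31 (29.0%) held the NRF2 binding core TGACNNNGC on either strand. Of all 27025 genes with a window, 14.0% held it. The core is short, and such matches are letters in a window, not measured binding. Sequence outside the windows was not searched, so a window without the core does not mark a gene without a core. In Prdx1 the match extended to TGACTCA, the binding sequence of AP-1 factors. The matches of 5 members known as NRF2 targets or named below are shown with the core in capitals, 5′ to 3′ on the strand that reads TGACNNNGC.
Prdx1 (chr4:116685456-116685484, minus strand): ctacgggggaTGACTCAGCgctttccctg
Gclm (chr3:122245413-122245441, minus strand): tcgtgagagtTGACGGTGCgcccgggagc
Txnrd1 (chr10:82859104-82859132, minus strand): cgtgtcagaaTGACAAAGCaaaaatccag
Srxn1 (chr2:152105542-152105570, minus strand): tgtctcactcTGACCTAGCtgcccactgc
Mgst1 (chr6:138140461-138140489, minus strand): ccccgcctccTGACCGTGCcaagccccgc
The other matches lay in Nfe2l2, G6pdx, Gstm5 and Sod1. Of these 9 genes, Mgst1 alone was 2-fold or more apart between the libraries. Of the 22 members whose windows lacked the core, 3 were 2-fold or more apart. Hmox1, Gsta4 and Sod3 were also 2-fold or more apart but had no window, so they were not searched. Gclc, Gsr and Prdx6 had none either.

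Most members lay within 2-fold between the 2 libraries, as did most of all genes compared, and the few past it went in both directions. On the log2 scale of FPKM plus a pseudocount of 1, which understates differences of low genes, 5 members were at least 2-fold higher in null cells, where 6.84% of the 12773 genes compared were. The 5 members make up 13.5% of the 37. Another 2 members (5.41%) were at least 2-fold lower, beside 6.88% of all genes compared. The remaining 30 members lay within 2-fold, and 7 of 37 (18.9%) past 2-fold in either direction stands beside 13.7% of all genes. Past 2-fold in the null direction were Hmox1, Gstm1, Gstt1, Mgst1 and Sod3, and in the other Gpx3 and Gsta4. With the columns scaled to an equal upper quartile the split was 3 higher and 2 lower, since Gstm1 and Hmox1 came within 2-fold, and with a pseudocount of 5 Gstm1 and Gstt1 did. The median log2 ratio of null to heterozygote was 0.05 for the members and 0.03 for all genes compared, with 19 members above 0 and 18 below. The summed FPKM of the members was 6544 in null cells and 6525 in heterozygote cells, or 0.934% and 0.877% of each library's total.

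**Figure D1:**
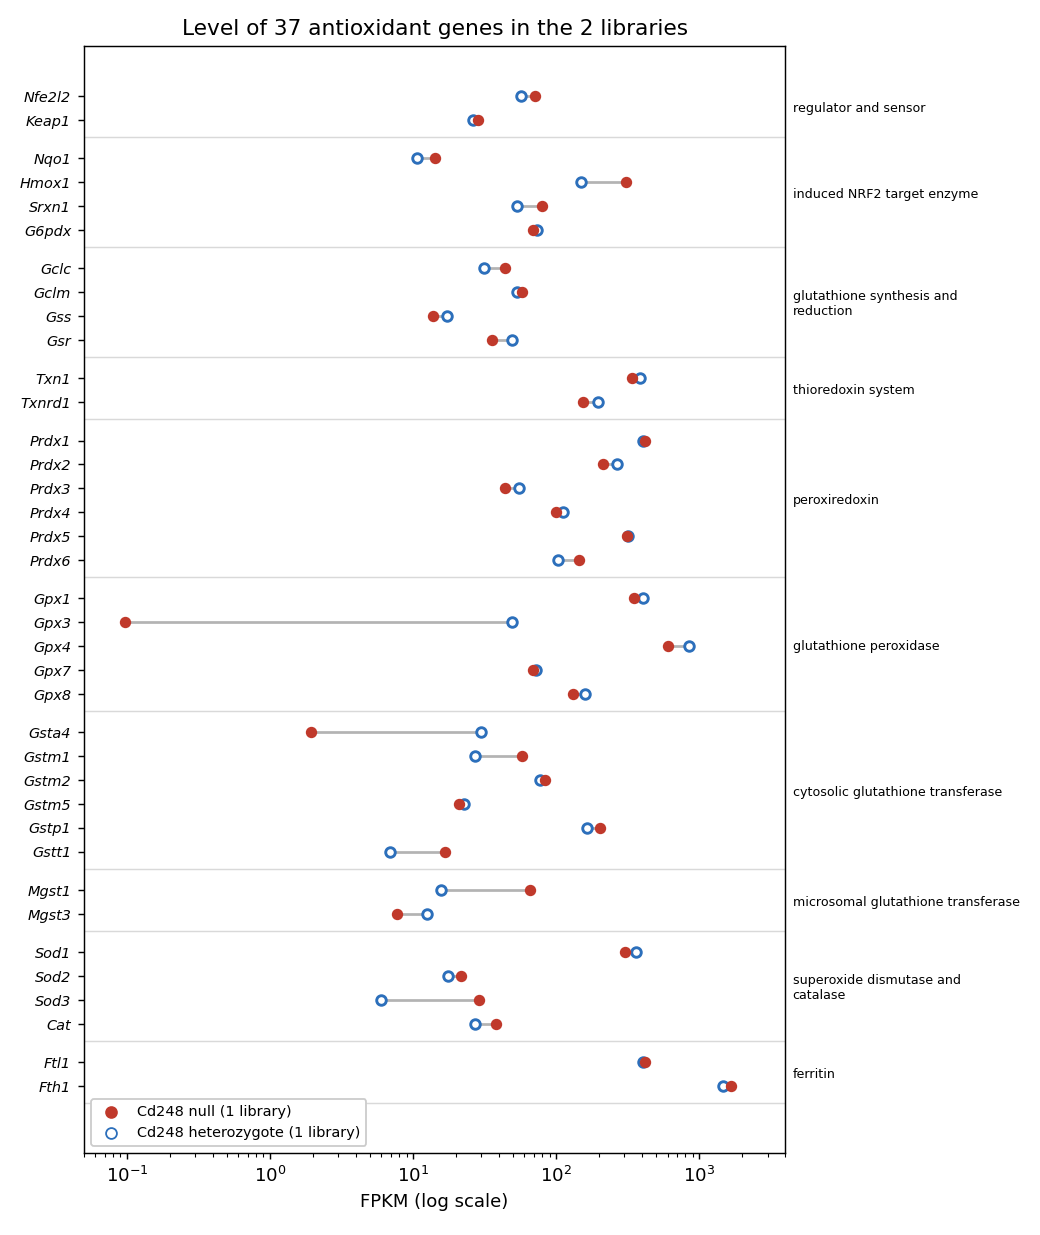
FPKM (log axis) of each of the 37 members in the Cd248 null library (filled red) and the Cd248 heterozygote library (open blue), 1 library each, with a grey line joining the 2 values. Most pairs of points lie close together, while Gpx3 and Gsta4 lie far to the left in null cells and Sod3 and Mgst1 to the right.

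The members were sorted by what they do into 10 roles. In 5 roles, the regulators, glutathione synthesis, thioredoxin, peroxiredoxins and ferritins, none of 16 members was 2-fold apart. The 7 genes that were belong to the other 5 roles, which hold 21 members. This split was drawn after the values were seen, so the lack of such genes in the first 5 roles follows from how it was drawn. Of all genes compared, 13.7% were 2-fold apart.

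The regulator and its sensor differed little. Nfe2l2 had FPKM values of 71.6 in null cells and 56.6 in heterozygote cells (log2 ratio 0.33), and Keap1 had 28.4 and 26.1 (0.12). Of 15 expressed partners and regulators of NRF2 on a list of 17, none was 2-fold higher in null cells, 1 was 2-fold lower and 14 lay within 2-fold. The small MAF partner Mafg stood at 70.5 and 70.4. Bach1, a repressor that competes with NRF2 for its sites, stood at 11.8 in null cells and 7.18 in heterozygote cells, within 2-fold. The lower gene, Nfe2l3, which encodes a related factor, had 0.0997 and 4.25, and was named after its values were seen.

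Among the inducible NRF2 target enzymes, Hmox1 differed most. It encodes heme oxygenase 1, which breaks heme down to biliverdin, iron and carbon monoxide, and BACH1 is known to repress it. Its FPKM was 307 in null cells and 149 in heterozygote cells, a ratio of 2.06 with a counting interval of 1.98 to 2.14, so it lay at the 2-fold mark. Srxn1, whose product sulfiredoxin repairs overoxidised peroxiredoxins, had 79.3 and 53.4. Nqo1, a quinone reductase often used as a readout of NRF2, was among the less abundant members at 14.2 and 10.7. G6pdx, the X-linked gene of the enzyme that begins the pentose phosphate route to NADPH, had 68.7 and 74.0. The last 3 lay within 2-fold, and only Hmox1 of the 4 passed it.

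Genes for making and recycling glutathione lay within 2-fold. Gclc and Gclm, the catalytic and modifier subunits of glutamate-cysteine ligase, had FPKM values of 43.9 and 57.7 in null cells and 31.5 and 53.2 in heterozygote cells. Gss, glutathione synthetase, stood at 13.8 and 17.3. Gsr, the reductase that regenerates glutathione from its disulphide, stood at 35.3 and 49.1. The log2 ratios of these 4 genes ran from -0.46 for Gsr to 0.46 for Gclc.

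Genes upstream and downstream of glutathione were taken from a list of 19, of which 14 were expressed, 2 at least 2-fold higher in null cells and none lower. Ggt7, a member of the gamma-glutamyltransferase family, was higher at 34.7 against 6.74. Cndp2, a dipeptidase that splits cysteinylglycine, was higher at 127 against 44.8. Slc7a11, the cystine carrier that feeds glutathione synthesis and a known NRF2 target, was low at 1.01 and 0.592, from about 72 and 51 reads. Its partner chain Slc3a2, named here after its values were seen, had 211 and 213.

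The thioredoxin and peroxiredoxin genes were abundant and even. Txn1 (cytosolic thioredoxin) stood at 341 in null cells and 386 in heterozygote cells, and its reductase Txnrd1 at 153 and 196. The peroxiredoxins use thioredoxin or glutathione to reduce peroxides, and the 6 of them ran from log2 ratios of -0.34 (Prdx2, 212 and 268) to 0.49 (Prdx6, 144 and 102). Prdx1 (417 and 402) and Prdx5 (315 and 317) were the most abundant of the family in both libraries. The mitochondrial member Prdx3 had 44.0 and 54.8, and the endoplasmic reticulum member Prdx4, which is X-linked, had 100.4 and 112. Their summed FPKM was 1232 and 1257. Of 20 further thioredoxin, glutaredoxin and methionine sulphoxide reductase genes, 1 was at least 2-fold higher in null cells and none lower. That gene was Sesn3, a sestrin, at 23.1 against 8.51.

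**Figure D2:**
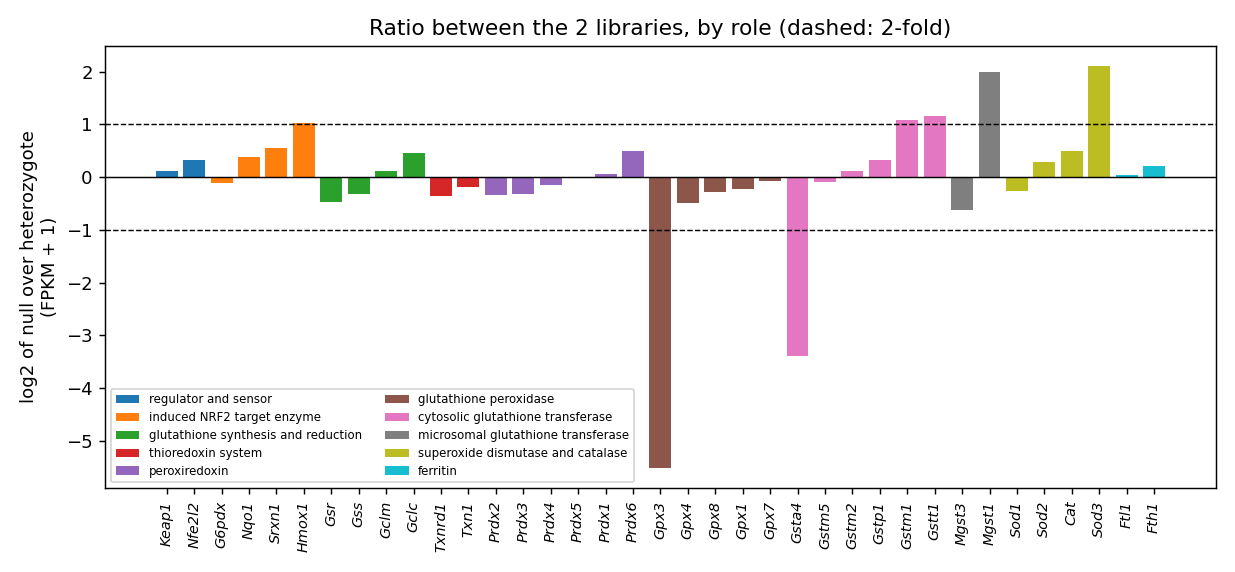
Log2 ratio of null to heterozygote (FPKM plus 1) for each member, coloured by role and ordered by ratio within a role, with dashed lines at 2-fold. Gpx3 (-5.52) and Gsta4 (-3.39) reach far below the lower line, and Sod3 (2.11), Mgst1 (1.99), Gstt1 (1.16), Gstm1 (1.08) and Hmox1 (1.04) cross the upper one.

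Gpx3 differed more than any other member. It encodes the secreted, plasma form of glutathione peroxidase. Its FPKM was 0.0973 in null cells, which corresponds to 2 reads (exact 95% Poisson interval of 0.0118 to 0.352 FPKM), and 49.3 in heterozygote cells, or about 1228 reads. The ratio of heterozygote to null was 507, with a counting interval of 140 to 4188. Its log2 ratio of -5.52 stood at percentile 0.0939 of all genes compared. The cell-associated glutathione peroxidases showed nothing of that size. Gpx1, the main cytosolic enzyme, had 347 and 404. Gpx4, which reduces lipid hydroperoxides in membranes and holds back ferroptosis, had 606 and 848. The endoplasmic reticulum forms Gpx7 and Gpx8 had 68.9 and 72.2, and 130.4 and 159. Gpx3 made up 0.00844% of the family's summed FPKM in null cells and 3.21% in heterozygote cells, and the sums were 1152 and 1533.

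The promoter window of Gpx3 (chr11:54902604-54902903, plus strand, GRCm38.p6) is shown because this gene went furthest. It held no TGACNNNGC core, so no letters are in capitals, and it held 13 CG pairs.
Gpx3: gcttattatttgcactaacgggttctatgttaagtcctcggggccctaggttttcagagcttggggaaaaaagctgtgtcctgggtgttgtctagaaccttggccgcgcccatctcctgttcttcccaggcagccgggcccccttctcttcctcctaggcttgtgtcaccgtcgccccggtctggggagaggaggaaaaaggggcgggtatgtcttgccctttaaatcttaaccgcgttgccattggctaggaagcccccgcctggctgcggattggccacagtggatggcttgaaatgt

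Markers of mesothelium and epithelium were high in the same library as Gpx3. Of 12 such markers, 9 reached an FPKM of 1 in heterozygote cells and 2 in null cells, and their summed FPKM was 1196 against 18.0. Lrrn4, Krt8, Epcam and Muc16 were listed at 0 in null cells, and Epcam also in heterozygote cells. Of 10 endothelial markers, Flt4 and Esam reached an FPKM of 1, and the list summed to 88.5 in heterozygote cells and 2.31 in null cells. In that list Tie1, Cldn5 and Emcn were listed at 0 in both libraries, and Cdh5 in null cells alone. Leukocyte markers went the other way, with 148 in null cells, most of it Cd53 (124), and 16.4 in heterozygote cells, while Adgre1, Itgam, Cd3e, Laptm5 and Tyrobp were listed at 0 in both and Ptprc in null cells. The part of these markers in the differences of Gpx3 and of the other 6 genes was not tested. In bulk RNA, fewer cells of a type and less RNA per cell cannot be told apart.

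The superoxide dismutases, which turn superoxide into hydrogen peroxide, differed for the secreted form alone past 2-fold. Sod3, the secreted enzyme that binds the extracellular matrix, had an FPKM of 29.1 in null cells and 5.99 in heterozygote cells, from 2153 and 537 reads. It was 4.86-fold higher in null cells, with a counting interval of 4.42 to 5.35. Cytosolic Sod1 stood at 303 and 363 and mitochondrial Sod2 at 21.8 and 17.6, both within 2-fold. Sod3 took 8.22% of the family's summed FPKM in null cells and 1.55% in heterozygote cells, while the sums were 354 and 386. Catalase (Cat), the peroxisomal enzyme that removes hydrogen peroxide, had 38.2 and 26.9. The secreted peroxidase gene and the secreted dismutase gene were thus far apart between the libraries in opposite directions.

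The glutathione transferases, which attach glutathione to electrophiles, held 4 of the 7 genes past 2-fold. Gsta4, known for conjugating the lipid peroxidation product 4-hydroxynonenal, was 15.4-fold lower in null cells, at 1.94 against 29.8, from 33 and 615 reads and with a counting interval of 10.8-fold to 22.5-fold. Gstm1 was higher in null cells at 58.0 against 26.9, a ratio of 2.15 (counting interval 1.94 to 2.39). Gstt1, of the theta class, was higher at 16.8 against 6.95, a ratio of 2.42 (1.97 to 2.97, from 289 and 145 reads). The most abundant transferase, Gstp1, had 204 and 163. Gstm2 (83.7 and 77.4) and Gstm5 (21.1 and 22.7), which lie on chromosome 3 as Gstm1 does, were within 2-fold. The summed FPKM of these 6 cytosolic enzymes was 385 in null cells and 327 in heterozygote cells.

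Mgst1, a membrane-bound transferase with peroxidase activity in the endoplasmic reticulum and the outer mitochondrial membrane, was 4.17-fold higher in null cells. Its FPKM was 65.8 there and 15.8 in heterozygote cells, and the counting interval of the ratio was 3.66 to 4.76. Mgst3, of the same superfamily, had 7.74 and 12.4, within 2-fold. Mgst1 was 89.5% of the summed FPKM of this pair in null cells and 56.0% in heterozygote cells, and the sums were 73.6 and 28.2. Its first promoter window (chr6:138140277-138140576, plus strand, GRCm38.p6) is shown. Among the members with a window, Mgst1 was the one gene 2-fold or more apart that held the core. The core reads on the opposite strand and is in capitals.
Mgst1: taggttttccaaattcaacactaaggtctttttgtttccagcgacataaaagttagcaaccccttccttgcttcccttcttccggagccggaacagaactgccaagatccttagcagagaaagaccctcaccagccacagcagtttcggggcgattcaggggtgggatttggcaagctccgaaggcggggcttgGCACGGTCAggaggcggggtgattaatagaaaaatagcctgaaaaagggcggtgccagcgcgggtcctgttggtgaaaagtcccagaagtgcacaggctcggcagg

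**Figure D3:**
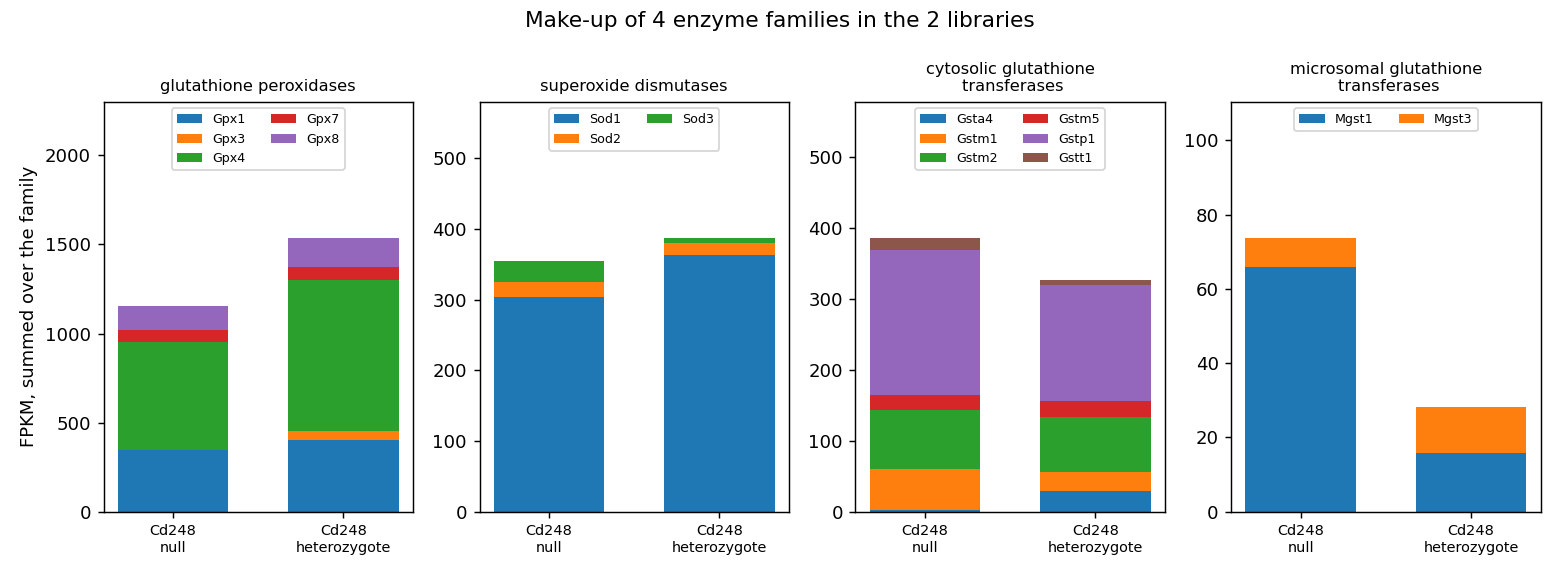
FPKM of the members of 4 enzyme families, stacked to the family's sum, in the 2 libraries (linear axis from 0, a scale of its own for each family). The glutathione peroxidase sums are 1152 and 1533, and the microsomal transferase sum is 73.6 in null cells against 28.2, most of the difference being Mgst1.

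Of 12 other expressed transferase genes on a list of 20, 1 was at least 2-fold higher in null cells, none lower and 11 within 2-fold. The higher gene was Gstk1, at an FPKM of 1.72 and listed at 0 in heterozygote cells. On chromosome 10, where Gstt1 lies, Gstt2 had 3.83 and 1.64, and Gstt3 had 5.22 and 10.6, both within 2-fold on the scale used. Gstk1, Gstt2 and Gstt3 were named after their values were seen. Reads of near-identical copies may have been divided among genes. Of the 50-base words in the longest transcript of Gstm1, 23.1% also occur in transcripts of 5 other genes. The share was 62.3% for Gstp1, 61.7% for Gpx4 and 90.6% for Ftl1. The genes that share most with these 3 had low values, at 1.05 and 0.542 for Gstp2, 7.63 and 9.04 for Gpx4-ps2, and 1.27 and 2.27 for Ftl1-ps1. How reads were divided among copies was not tested. It was 0 for Gpx3, Gsta4, Gstt1, Mgst1, Sod3 and Hmox1.

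Fth1, the ferritin heavy chain that oxidises iron for storage, was the most abundant member in both libraries. It had an FPKM of 1678 in null cells and 1459 in heterozygote cells. Ftl1, the light chain, had 417 and 404. Of 17 expressed iron-handling genes on a list of 19, 1 was at least 2-fold higher, 1 lower and 15 within 2-fold. Steap3, a metal reductase of the transferrin cycle, was higher in null cells (27.0 against 6.88), and Slc39a8, a zinc, manganese and iron importer, was lower (4.09 against 12.1).

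**Figure D4:**
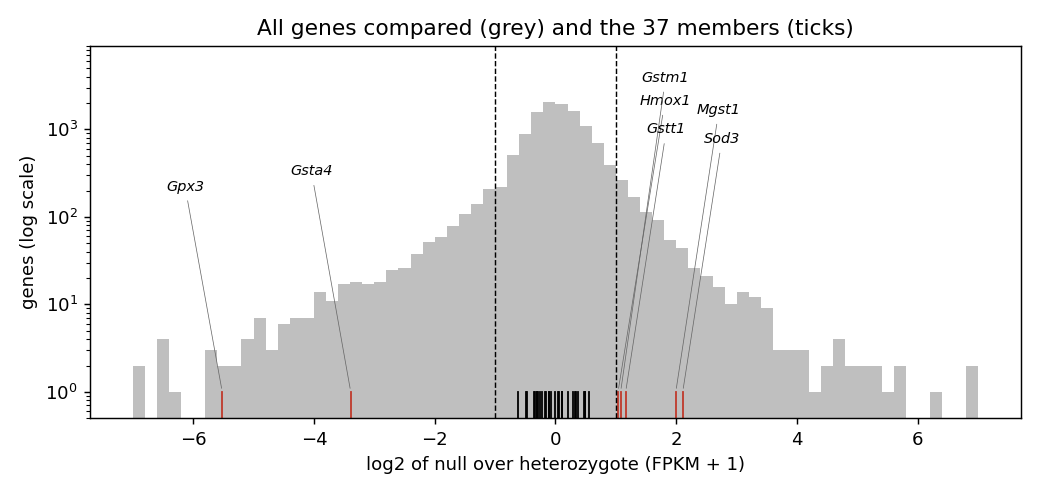
Histogram of the log2 ratio of null to heterozygote (FPKM plus 1) over the 12773 genes compared, with the number of genes on a log axis and values beyond 7 drawn at 7. Ticks mark the 37 members, black within 2-fold and red with a name beyond it. The 30 black ticks lie between -0.62 and 0.56.

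Further genes of the system came from 12 lists holding 204 genes in all, each counted once and none a member. Of the 163 that were expressed, 18 (11.0%) were at least 2-fold higher in null cells, 6 (3.68%) lower and 139 within 2-fold, with a median log2 ratio of 0.14. The shares over all genes compared were 6.84% and 6.88%. Of 29 expressed detoxification genes, 5 were higher and 3 lower. The higher genes included Cyp1b1, a cytochrome P450 of aromatic compounds (36.0 and 5.57), Blvrb, a biliverdin reductase (76.6 and 26.8), Cbr3, a carbonyl reductase (29.2 and 13.9), and Abcc4, an export pump (5.87 and 2.38). Cyp2s1, another P450 (0.593 and 38.7), and Akr1c14, a hydroxysteroid dehydrogenase (0.562 and 21.2), were lower in null cells.

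Among 16 expressed genes of NADPH supply, 2 were higher in null cells and 1 lower. The mitochondrial folate enzyme Aldh1l2 (20.9 and 3.76) and the isocitrate dehydrogenase Idh1 (135 and 56.6) were higher, and the ribose phosphate isomerase Rpia (8.37 and 18.4) was lower. Of 18 selenoprotein and selenium-insertion genes, 17 lay within 2-fold and Selenop, the secreted selenium carrier, was higher in null cells at 74.3 against 29.0. Gpx3, itself a selenoprotein, stood in the opposite direction.

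**Figure D5:**
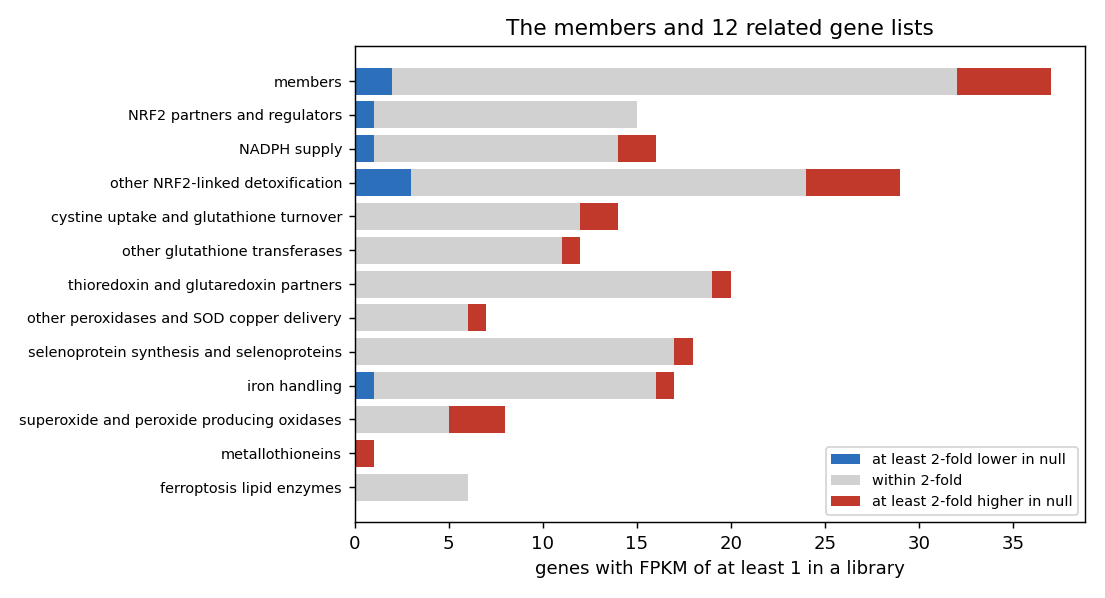
Number of expressed genes (FPKM of at least 1 in a library) of the members and of 12 related lists that were at least 2-fold lower (blue), within 2-fold (grey) or at least 2-fold higher (red) in null cells. Grey makes up most of each bar except for the metallothioneins, which have 1 expressed gene.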

How the data were processed

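The table deposited by the authors holds FPKM for 52636 Ensembl gene IDs in both libraries. Per the submitters' processing notes, Bowtie2 (2.2.3) and the build mm8 were used. The sources used here give no counter, annotation or strand setting. Most IDs match GENCODE M21, an annotation of a later build, and this was not reconciled with the mm8 of the notes. Symbols were matched by ID for 52403 IDs (GENCODE M21), and the row with the highest mean stood for a symbol. Coordinates are those of the RefSeq promoter table.

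Low FPKM values come in steps of 1 read. For genes with 1 transcript and fewer than 10 reads, 98.6% and 98.5% of values were whole within 0.02 reads, giving totals of 19786340 reads (null) and 23982012 (heterozygote). For genes with several transcripts, 89.0% and 89.1% were whole when the mean annotated transcript length was used, and 7.48% and 7.65% with the longest. The length behind FPKM is therefore taken as that mean. Sod1, for example, has transcripts of 641 and 3970 bases. The length affects levels compared between genes and not plain FPKM ratios between libraries. Log2 ratios after adding 1, and the filter on FPKM, do depend on it. At the longest transcript Gpx3 had a log2 ratio of -4.96 instead of -5.52, and 12162 genes were compared instead of 12773. Reads of members were computed with the mean length. The 95% counting intervals (exact Poisson, or exact binomial for a ratio) cover counting error only, and not variation between cultures. Reads are not independent molecules, so the intervals may be too narrow even for counting error.

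Genes with FPKM of at least 1 in a library were compared by the log2 ratio after adding 1. No test was possible with 1 library per genotype. The counting rule was run on simulated data with counting error alone. Those data hold no variation between cultures, so the run says nothing about such variation here. Members and lists were chosen with earlier results of these data known. The text names all members, up to 4 genes per direction of each related list (2-fold apart, FPKM of at least 5) and Mafg, Bach1, Slc7a11 and Nox4. Genes outside this rule are marked in the text as named after their values were seen. Alternatives were pseudocounts of 0.1 and 5, no filter, a minimum FPKM of 5, 2 scalings and centring on the median gene. The markers and the sex-linked genes were checks, the latter chosen after the values were seen. Python 3.11.15, pandas 2.3.3 and scipy 1.17.1 were used.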

Additional observations from a re-analysis of the deposited data

How the results depend on the processing

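Each count was recomputed under 7 alternative settings and 1 added after seeing the data (FPKM at the longest transcript), and the member counts also at 1.5-fold, likewise added. The count of members higher in null cells was 5 in the main setting and fell to 3 with a pseudocount of 5 (without Gstm1 and Gstt1) and to 3 with columns scaled to an equal upper quartile (without Gstm1 and Hmox1); the cause was not tested. Under the latter the split was 3 higher and 2 lower. The shares of all genes compared also moved. Higher and lower in null cells, they were 3.13% and 2.89% with a pseudocount of 5, and 6.04% and 7.50% with the upper quartile scaling. With a pseudocount of 0.1 they were 10.2% and 8.53%, while the members stayed at 5 and 2. At 1.5-fold they were 15.8% and 12.9%, beside 5 and 3 of the 37 members. Gpx3 and Gsta4 were the members lower in all of these settings, joined by Mgst3 at 1.5-fold. Mgst1 (log2 ratios of 1.77 to 2.08) and Sod3 (1.63 to 2.26) were past 2-fold in each setting that used that mark. The log2 ratio of Gpx3 ran from -7.97 with a pseudocount of 0.1 to -3.41 with one of 5. The member median ran from -0.05 to 0.13, so no direction is given for it. Related genes lower in null cells numbered 6, and 2 with a pseudocount of 5. No paired analysis was possible because each genotype has 1 library. Depth limits Gpx3 in null cells, which rests on 2 reads.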

Other observations

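Genes for enzymes that produce superoxide or peroxide, the opposite side of this chemistry, were expressed in 8 cases of 18. Of these, 3 were at least 2-fold higher in null cells and none lower, beside 6.84% and 6.88% of all genes compared. Xdh, the xanthine oxidoreductase of purine breakdown, had an FPKM of 65.8 in null cells and 14.3 in heterozygote cells. Ero1lb, which passes electrons from disulphide formation to oxygen in the endoplasmic reticulum, had 10.5 and 2.05. Maob, an X-linked monoamine oxidase named after its values were seen, had 3.64 and 0.360. Nox4, the NADPH oxidase of many mesenchymal cells, was low in both at 1.62 and 1.25. Of 7 other peroxidases and copper-delivery genes, Ptgs2, the inducible prostaglandin synthase with a peroxidase site, was higher at 142 against 54.9, and 6 lay within 2-fold. The 6 expressed genes of the ferroptosis list all lay within 2-fold.

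The metallothioneins, small metal-binding proteins, were uneven. Mt1 had an FPKM of 686 in null cells and 286 in heterozygote cells, while Mt2, named after its values were seen and on chromosome 8 as Mt1 is, had 0.674 in null cells and was listed at 0 in heterozygote cells.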
